A study of Mus musculus with 2 samples.

Results

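Acetylation of histone H3 was examined at 6 immediate early genes of mouse Th2 cells: Fos, Jun, Junb, Jund, Egr1 and Myc. Each gene was represented by a fixed window of the mm9 genome, given by its coordinates. The windows were chr12:86790001-86840000 for Fos, chr4:94690001-94740000 for Jun, chr8:87480001-87520000 for Junb, chr8:73200001-73245000 for Jund, chr18:35000001-35045000 for Egr1 and chr15:61790001-61840000 for Myc. Together they hold 280 bins of 1 kb, out of 2246042 bins covered by reads in the genome. Th2 cells are the helper T cells that secrete interleukin 4. CD4+CD62L+ splenocytes of C57BL/6 mice were activated with anti-CD3/CD28 for 5 days together with 10 ng/ml IL-4 and 2 µg/ml anti-IFN-g, and then rested for 3 days, so both libraries describe rested cells. Chromatin of these cells was precipitated with anti-H3KAc, which binds histone H3 carrying acetylated lysines, or with polyclonal rabbit IgG, which measures the non-specific background, and the recovered DNA was sequenced (ChIP-seq). There was 1 library of each kind, so no p-value was computed, and every interval below is a 95% counting interval that compares these libraries and not conditions. The sources used here give neither the number of mice nor whether both libraries came from 1 culture.

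Immediate early genes are transcribed within minutes of a stimulus without new protein synthesis, in T cells after engagement of the antigen receptor, and their RNA is short-lived. Jun, Junb and Jund encode basic leucine zipper proteins that pair with each other or with Fos to form the transcription factor AP-1. Egr1 encodes a zinc finger activator, and Myc a helix-loop-helix protein that pairs with Max and drives cell growth. Acetylation of histone H3 is a mark of active promoters and enhancers, and promoters of immediate early genes are known to carry it in other cells before the stimulus arrives.

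The bases just before the start of Fos, Jun and Junb are shown because histone H3 acetylation is known to gather at promoters, and because stimulus-driven factors bind there. They are 250 bases each, from RefSeq on build GRCm38.p6. Capitals mark matches to the motifs searched.
Fos (chr12:85473640-85473889, plus strand): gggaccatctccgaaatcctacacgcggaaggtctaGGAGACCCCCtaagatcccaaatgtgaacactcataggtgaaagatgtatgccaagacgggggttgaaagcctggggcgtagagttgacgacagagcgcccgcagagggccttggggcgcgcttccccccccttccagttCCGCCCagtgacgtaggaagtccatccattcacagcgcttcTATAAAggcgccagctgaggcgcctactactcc
Jun (chr4:95052223-95052472, minus strand): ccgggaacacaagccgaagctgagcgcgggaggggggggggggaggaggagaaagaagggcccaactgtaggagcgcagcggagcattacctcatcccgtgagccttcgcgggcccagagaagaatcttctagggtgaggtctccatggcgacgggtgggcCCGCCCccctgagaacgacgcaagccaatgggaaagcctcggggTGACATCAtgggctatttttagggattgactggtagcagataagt
Junb (chr8:84978749-84978998, minus strand): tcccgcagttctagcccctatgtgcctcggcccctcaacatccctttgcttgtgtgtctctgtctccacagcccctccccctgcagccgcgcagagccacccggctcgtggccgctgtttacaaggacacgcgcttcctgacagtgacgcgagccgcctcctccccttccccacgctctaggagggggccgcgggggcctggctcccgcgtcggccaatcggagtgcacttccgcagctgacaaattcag
From a table of 32851 promoters, those of 4 of the 6 members were searched, with Jund as the other one. Egr1 and Myc were not among those searched. Both strands were searched. The motifs were TGACGTCA, the cyclic AMP response element, and TGACATCA, the variant of it known from the Jun promoter. The AP-1 site was searched as TGACTCA. An E-box, the kind of site that Myc binds, was searched as CACGTG. The Sp1 site of many housekeeping promoters was searched as GGGCGG, and the TATA box as TATAAA. A STAT site was searched as TTCNNNGAA, and the CArG box and the NF-kB site by their consensus. No searched motif contains another, although the cyclic AMP response element, its variant and the AP-1 site share their ends.

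TGACATCA, already known from the Jun promoter, was found there, starting 45 bases before the gene start, so this match was foreseeable. Over all promoters 2.93% held it. TATAAA was found in Fos, 33 bases before the start, against 12.4% of all promoters. GGGCGG lay on the opposite strand in Fos, 74 bases before the start, and in Jun, 89 bases before it, against 32.7% of all promoters. A match to the NF-kB consensus lay 214 bases before the Fos start, and 7.25% of promoters held such a match. None of the searched letters was found in Junb or Jund. Full matches to the cyclic AMP response element (1.55% of all promoters), the AP-1 site (4.46%), the E-box (6.02%), the STAT site (7.02%) and the CArG box (1.47%) were in none of the 4 members searched, within the 250 bases. Partial matches were not counted. The Fos bases hold TGACGTAG, which differs from TGACGTCA only at its end. GC content was 58.4% in Fos, 61.2% in Jun and 66.4% in Junb, above the median of 52.4% over all promoters. The ratio of observed to expected CpG was 0.705, 0.676 and 0.762 in these 3, against a median of 0.373. For Jund, which has more than 1 RefSeq transcript, the table starts at the outermost one, and there GC content was 47.6% and the CpG ratio 0.213. These promoters lie on another build than the reads, so no bin below is assigned to a gene start.

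Levels are reads per 1000000 distinct positions (RPM), with each position counted 1 time, and 1 position is worth 0.0507 RPM in H3KAc and 0.527 RPM in IgG. The H3KAc library held 19711169 distinct positions and the IgG library 1897666, so IgG limited the precision of every ratio. Covered bins averaged 8.78 H3KAc and 0.845 IgG positions. The windows held 7272 H3KAc and 521 IgG positions. H3KAc averaged 1.32 RPM per kb over the windows and IgG 0.981, against 0.445 RPM per covered bin in either library. Both libraries were thus higher over the windows than over the genome. The H3KAc over IgG ratio of the windows together was 1.34 (1.23 to 1.47).

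Much of the H3KAc of the windows was gathered in few bins, although the other bins of Junb and Jund were also above the genome-wide median. At or above the 99th percentile of all covered bins, which is 46 positions or 2.33 RPM, lay 43 of the 280 window bins (15.4%), against 1.02% of all covered bins. They formed 17 runs of neighbouring bins. These 43 bins held 49.6% of the H3KAc and 34.0% of the IgG positions of the windows. Their ratio was 1.96 (1.69 to 2.29), and over all such bins of the genome it was 1.93 (1.92 to 1.94). Bins chosen for high H3KAc have a raised ratio through that choice, so both values are descriptions. The other 237 bins of the windows had a ratio of 1.03 (0.919 to 1.15). The same choice lowers the ratio of the bins left over, here and in each window below. IgG was also higher in the H3KAc-rich bins, with a mean of 4.12 positions per bin against 1.45 in the others. As a scale for such ratios, mitochondrial DNA, which carries no histones, had a ratio of 3.76 (2.69 to 5.43) in these libraries, from 1368 and 35 positions. The windows were compared with all covered bins, which are mostly outside genes, and not with windows at other genes.

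**Figure D1:**
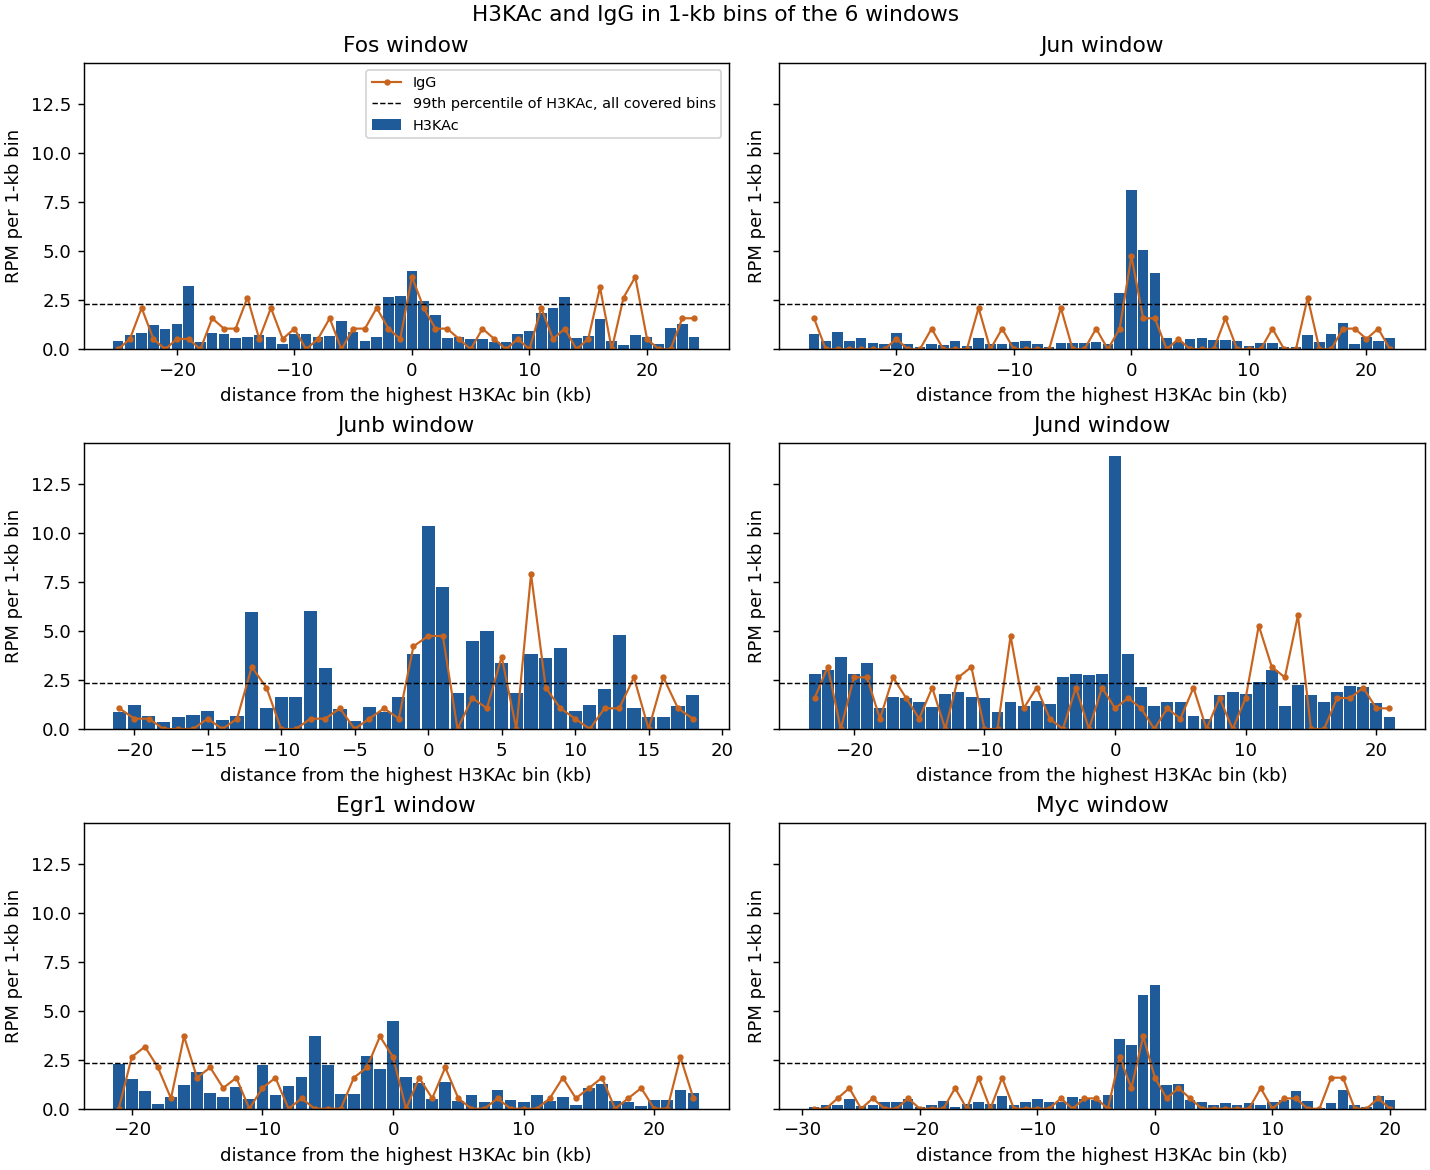
H3KAc (bars) and IgG (line with points) in RPM per 1-kb bin over each window, by distance in kb from the highest H3KAc bin; the dashed line is the 99th percentile of H3KAc over all covered bins, 2.33 RPM. Jun and Myc show 1 isolated run above the line, while Junb and Jund hold 13 such bins each.

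Jun, the founding AP-1 subunit, had a single run of bins in the genome-wide top 1%, in a window that was otherwise low. The run covered 4 kb, chr4:94716001-94720000, with 57, 160, 100 and 77 H3KAc positions in its 4 bins and 2, 9, 3 and 3 in IgG. It held 51.7% of the H3KAc and 32.1% of the IgG positions of the window in 8% of its length. H3KAc averaged 5.00 RPM per kb there (4.52 to 5.52) and IgG 2.24, a ratio of 2.23 (1.38 to 3.87). The edges were steep. The bins next to the run held 5 and 11 H3KAc positions. In the other 46 bins the median was 7 positions, close to the genome-wide median of 6, and the ratio was 0.984 (0.698 to 1.43). The highest bin, chr4:94717001-94718000, had 8.12 RPM in H3KAc (6.91 to 9.48), 21.3 times the median of the window, and ranked 848 among all covered bins. IgG had 4.74 RPM in that bin, a ratio of 1.71 (0.879 to 3.81), so the bin did not stand above IgG beyond counting error.

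Junb, an AP-1 subunit known to act on the Il4 gene in Th2 cells, lay in the window with the highest mean level. H3KAc averaged 2.36 RPM per kb (2.25 to 2.47) over the window and IgG 1.33 (1.08 to 1.62), a ratio of 1.77 (1.45 to 2.19). The highest bin, chr8:87501001-87502000, held 204 H3KAc positions, or 10.3 RPM (8.98 to 11.9), and 9 IgG positions. Its ratio was 2.18 (1.13 to 4.84), and it ranked 240 among all covered bins. The next bin, from 87502001, held 143 H3KAc and 9 IgG positions, and the run around both covered 3 kb with a ratio of 1.56 (1.05 to 2.42).

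Further runs surrounded the main run of the Junb window. They covered 5 other stretches between 12 kb before and 13 kb after the highest bin. The run chr8:87493001-87495000 held 180 H3KAc and 2 IgG positions. Its ratio was 8.66 (2.36 to 72.1), while its H3KAc level was below that of the main run (4.57 against 7.14 RPM per kb). The 3-kb run chr8:87504001-87507000 had a ratio of 2.03 (1.14 to 3.98). In the run chr8:87508001-87511000, with 227 H3KAc and 21 IgG positions, the ratio was 1.04 (0.665 to 1.71). Of the 6 runs, the main one took 22.7% of the H3KAc positions of the window, so most H3KAc positions of the window lay elsewhere. Outside all runs the Junb ratio was 1.71 (1.19 to 2.52), and in the other 5 windows the interval of that ratio included 1. All 27 bins outside the runs were above the genome-wide median in H3KAc. In RefSeq the protein-coding neighbours of Junb on the chromosome are Prdx2, which encodes a peroxiredoxin, and Hook2. Which runs lie at these genes was not determined.

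Jund, the AP-1 subunit that is made without a stimulus in many cells, had the highest single bin of the 6 windows. The bin chr8:73223001-73224000 held 274 H3KAc positions, or 13.9 RPM (12.3 to 15.6), and 2 IgG positions. It ranked 72 among the 2246042 covered bins. Its ratio of 13.2 (3.62 to 109) rested on those 2 IgG positions. The bins on either side of it held 55 and 75 H3KAc positions. The run around it, chr8:73219001-73225000, covered 6 kb with 565 H3KAc and 13 IgG positions and a ratio of 4.18 (2.43 to 7.91).

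The rest of the Jund window was broadly raised in both libraries. A 5-kb run at the left edge, chr8:73200001-73205000, held 307 positions in H3KAc and 19 in IgG, which gave a ratio of 1.56 (0.979 to 2.62). A 2-kb run, chr8:73234001-73236000, held 106 and 16 positions, a ratio of 0.638 (0.375 to 1.16). All 32 bins outside the runs lay above the genome-wide H3KAc median, with a median of 27.5 positions. H3KAc averaged 1.46 and IgG 1.42 RPM per kb in these bins, a ratio of 1.03 (0.829 to 1.31). Leaving out the H3KAc-rich bins lowers this ratio, so it is a description. Over the whole Jund window the ratio was 1.37 (1.15 to 1.64). The protein-coding neighbours of Jund in RefSeq are Lsm4, a component of the spliceosome, and Iqcn.

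Fos, the main partner of the Jun proteins, had the lowest highest bin. That bin, chr12:86815001-86816000, held 79 H3KAc positions, or 4.01 RPM (3.17 to 5.00), and 7 IgG positions, or 3.69 RPM (1.48 to 7.60). The ratio was 1.09 (0.503 to 2.79), so H3KAc and IgG did not differ beyond counting error there. The 4-kb run around it, chr12:86813001-86817000, held 53, 54, 79 and 49 H3KAc positions and 2, 1, 7 and 4 in IgG. Its ratio was 1.62 (0.944 to 3.00). The highest bin of the run held 79 positions where the lowest held 49, against 160 and 57 in the run of Jun.

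Away from the main run, the Fos window held 2 more bins in the genome-wide top 1%. The bin chr12:86796001-86797000, 19 kb before the highest bin, held 64 H3KAc positions and 1 IgG position, and its ratio was 6.16 (1.07 to 247). It stood alone, with 25 and 7 H3KAc positions in the bins beside it. The bin chr12:86828001-86829000, 13 kb after the highest bin, held 53 and 2 positions and had a ratio of 2.55 (0.672 to 21.6). It ended a rise over 3 bins of 36, 41 and 53 positions. Over the whole Fos window the ratio was 1.03 (0.835 to 1.28), from 1027 and 96 positions.

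Egr1, a zinc finger factor induced through much of the same signalling as Fos, had no broad run. Its 3 bins in the genome-wide top 1% were single and separate. The highest, chr18:35021001-35022000, held 88 H3KAc positions, or 4.46 RPM (3.58 to 5.50), and 5 IgG positions. The ratio was 1.69 (0.699 to 5.35). The bin chr18:35019001-35020000 held 53 and 4. The bin chr18:35015001-35016000, 6 kb before the highest, held 73 H3KAc positions and no IgG position. A count of 0 allows up to 3 positions, or 1.58 RPM, by a 1-sided 95% bound rather than the interval used for the other levels. The lower bound of the exact interval of the ratio was 1.86. With minus-strand reads alone this bin, and not the one from 35021001, was the highest of the window. The bin after it held 44 H3KAc positions, just under the 46 of the top 1%, and again no IgG position. The bin just before the highest held 40 in H3KAc and 7 in IgG. The ratio over the whole window was 1.07 (0.858 to 1.34), from 986 and 89 positions.

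Myc, the growth regulator, resembled Jun in layout, with 1 isolated run in a low window. The run chr15:61816001-61820000 covered 4 kb and held 70, 64, 114 and 124 H3KAc positions and 5, 2, 7 and 3 in IgG. It contained 50.7% of the H3KAc and 35.4% of the IgG positions of the window, with a ratio of 2.11 (1.30 to 3.66). The highest bin was the last of the run, chr15:61819001-61820000, at 6.29 RPM in H3KAc (5.23 to 7.50) and 1.58 in IgG (0.326 to 4.62). Its ratio of 3.98 (1.33 to 19.6) rested on 3 IgG positions. H3KAc then fell to 24 positions in the next bin. By minus-strand reads the bin before it, from 61818001, was the highest. The other 46 bins had a median of 7 positions, and 26 of them lay above the genome-wide median, against 25 of 46 for Jun.

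**Figure D2:**
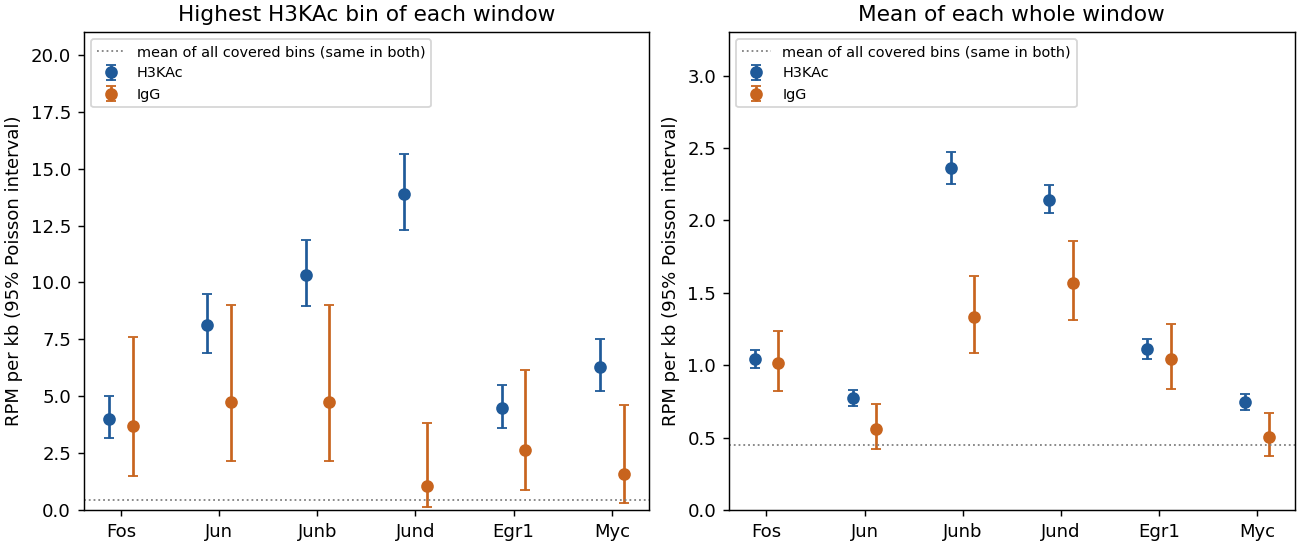
Level of H3KAc and IgG in RPM per kb for each gene, in the highest H3KAc bin of the window (left) and over the whole window (right), with 95% Poisson intervals; the dotted line is the mean of all covered bins, 0.445 RPM. Jund has the highest single bin (13.9 RPM) and Junb the highest window mean (2.36 RPM per kb).

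The order of the members depended on whether the highest bin or the whole window was measured. By the highest H3KAc bin the order was Jund, Junb, Jun, Myc, Egr1 and Fos. The levels were 13.9, 10.3, 8.12, 6.29, 4.46 and 4.01 RPM. Each step down to Egr1 exceeded counting error, with Jund 1.34 times Junb (1.12 to 1.62), Junb 1.28 times Jun (1.03 to 1.58), Jun 1.29 times Myc (1.01 to 1.64) and Myc 1.41 times Egr1 (1.06 to 1.87). Egr1 and Fos did not differ beyond it (1.11, 0.813 to 1.53). Jund was 3.47 times Fos (2.69 to 4.51). These levels are each the maximum of a window, the order was set by the same counts, and a second library could rank neighbours differently. The steps were not compared under other settings. With reads not moved, Junb and Jun lay closer, at 9.79 (8.46 to 11.3) and 8.93 RPM (7.66 to 10.3). With all reads as deposited they lay further apart, at 12.0 and 8.29 RPM.

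By the mean of the whole window the order was Junb, Jund, Egr1, Fos, Jun and Myc, so Jun and Myc moved to the end. Their means were 0.773 (0.719 to 0.830) and 0.745 (0.692 to 0.801) RPM per kb, which did not differ beyond counting error (1.04, 0.937 to 1.15). Egr1 and Fos had 1.11 and 1.04 RPM per kb, again with an interval of their ratio that included 1 (0.976 to 1.17). Jund was 1.93 times Egr1 (1.79 to 2.09). Outside the runs, Jund had 1.46 RPM per kb and Myc 0.399, a 3.67-fold difference (3.25 to 4.15). In the main run, Jun, Jund, Myc and Egr1 lay close together, between 4.46 and 5.00 RPM per kb. Junb lay above them with 7.14, and Fos below with 2.98. These runs differ in width, from 1 kb in Egr1, where the value is that of the highest bin alone, to 6 kb in Jund. A mean over a wider run takes in lower bins.

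**Figure D3:**
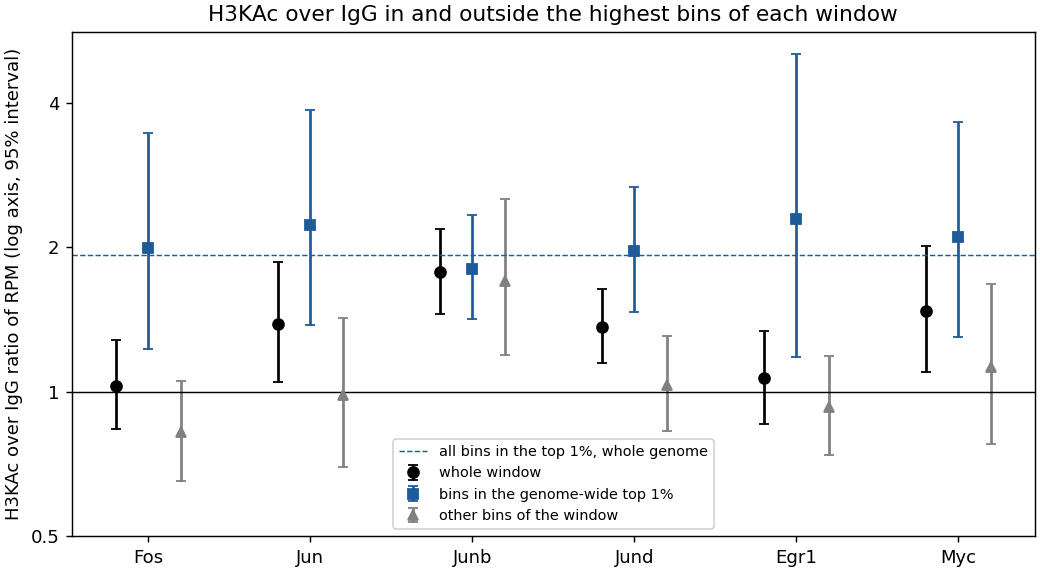
H3KAc over IgG ratio of RPM (log axis, 95% intervals) for each gene over the whole window, over its bins in the genome-wide top 1% and over its other bins; the dashed line is the ratio over all such top bins of the genome, 1.93. The top bins lie between 1.81 and 2.29 in the 6 windows and every interval includes the dashed line.

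Relative to IgG, the windows lay closer together when all their H3KAc-rich bins were pooled than run by run. Over the bins in the genome-wide top 1%, the ratio was 1.81 in Junb, 1.96 in Jund, 1.99 in Fos, 2.11 in Myc, 2.23 in Jun and 2.29 in Egr1. These bins were chosen for high H3KAc, which raises the ratio, so the values are descriptions. The widest interval was that of Egr1 (1.18 to 5.07), which rested on 9 IgG positions. The intervals overlapped throughout, and differences between these ratios were not tested. Single runs with IgG positions ranged from 0.638 in Jund to 8.66 in Junb, and the highest bins from 1.09 in Fos to 13.2 in Jund. In the 6 highest bins together, H3KAc was 17.6 times and IgG 6.90 times its mean per covered bin, and the ratio was 2.56 (1.82 to 3.69). Without Jund it was 1.91 (1.35 to 2.80).

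Few bins passed the strict calling rule. A bin was called enriched when the lower bound of its ratio was above 2, and this held for 2 of the 280 window bins (0.714%), against 0.0524% of all covered bins. These were the highest Jund bin and, in the Junb window, the bin chr8:87493001-87494000, with 119 H3KAc and 1 IgG positions and a lower bound of 2.02. The Junb bin lost the call when IgG was scaled by background bins, when H3KAc was thinned to the IgG number and with reads of either strand alone. The Jund bin kept it in those settings. With 500-bp bins the call in the Junb window fell in its highest 1-kb bin instead. With no IgG position a bin needed 79 H3KAc positions to be called, and with 9 IgG positions, as in the highest Jun and Junb bins, it needed 359. The highest bin of the windows held 274, so bins with more than 5 IgG positions could not be called in them at this depth.

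Less strict rules reached all 6 windows. With a lower bound above 1, 16 window bins passed (5.71%), against 0.409% of all covered bins. They were 6 in Junb, 4 in Jund, 3 in Egr1 and 1 each in Fos, Jun and Myc. With IgG taken from the 11 bins around each bin, 16 bins passed the bound of 2 (5.71%), against 1.35% of covered bins. They comprised 6 bins in Junb, 3 in Jun, 2 each in Jund, Egr1 and Myc, and 1 in Fos, and all 16 were in the genome-wide top 1%. The highest Jun bin was among them with a lower bound of 5.31, and the highest Jund bin with 9.59. The Fos call was the lone bin 19 kb before the highest one, with a lower bound of 2.02. Where IgG is higher in a bin than around it, as in the highest Jun bin, this rule takes the lower level around it.

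Some bins stood the other way. The upper bound of the ratio was below 1, with IgG above H3KAc, in 12 of the 280 window bins (4.29%), against 2.38% of all covered bins. They were 3 bins each in Fos and Egr1, 2 each in Jun, Junb and Jund, and none in Myc. The lowest ratio was in the Fos window, in chr12:86833001-86834000, with 4 H3KAc and 5 IgG positions (0.0770, 0.0153 to 0.358). The bin after it held 14 and 7 positions, a ratio of 0.193 (0.0727 to 0.564). In the Junb window, chr8:87508001-87509000 held the most IgG of all 280 bins, 15 positions or 7.90 RPM, against 75 positions or 3.80 RPM in H3KAc. Its ratio was 0.481 (0.274 to 0.903), and it was the only bin of the 12 in the genome-wide top 1% of H3KAc. The rule for these bins was added after their values were seen.

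**Figure D4:**
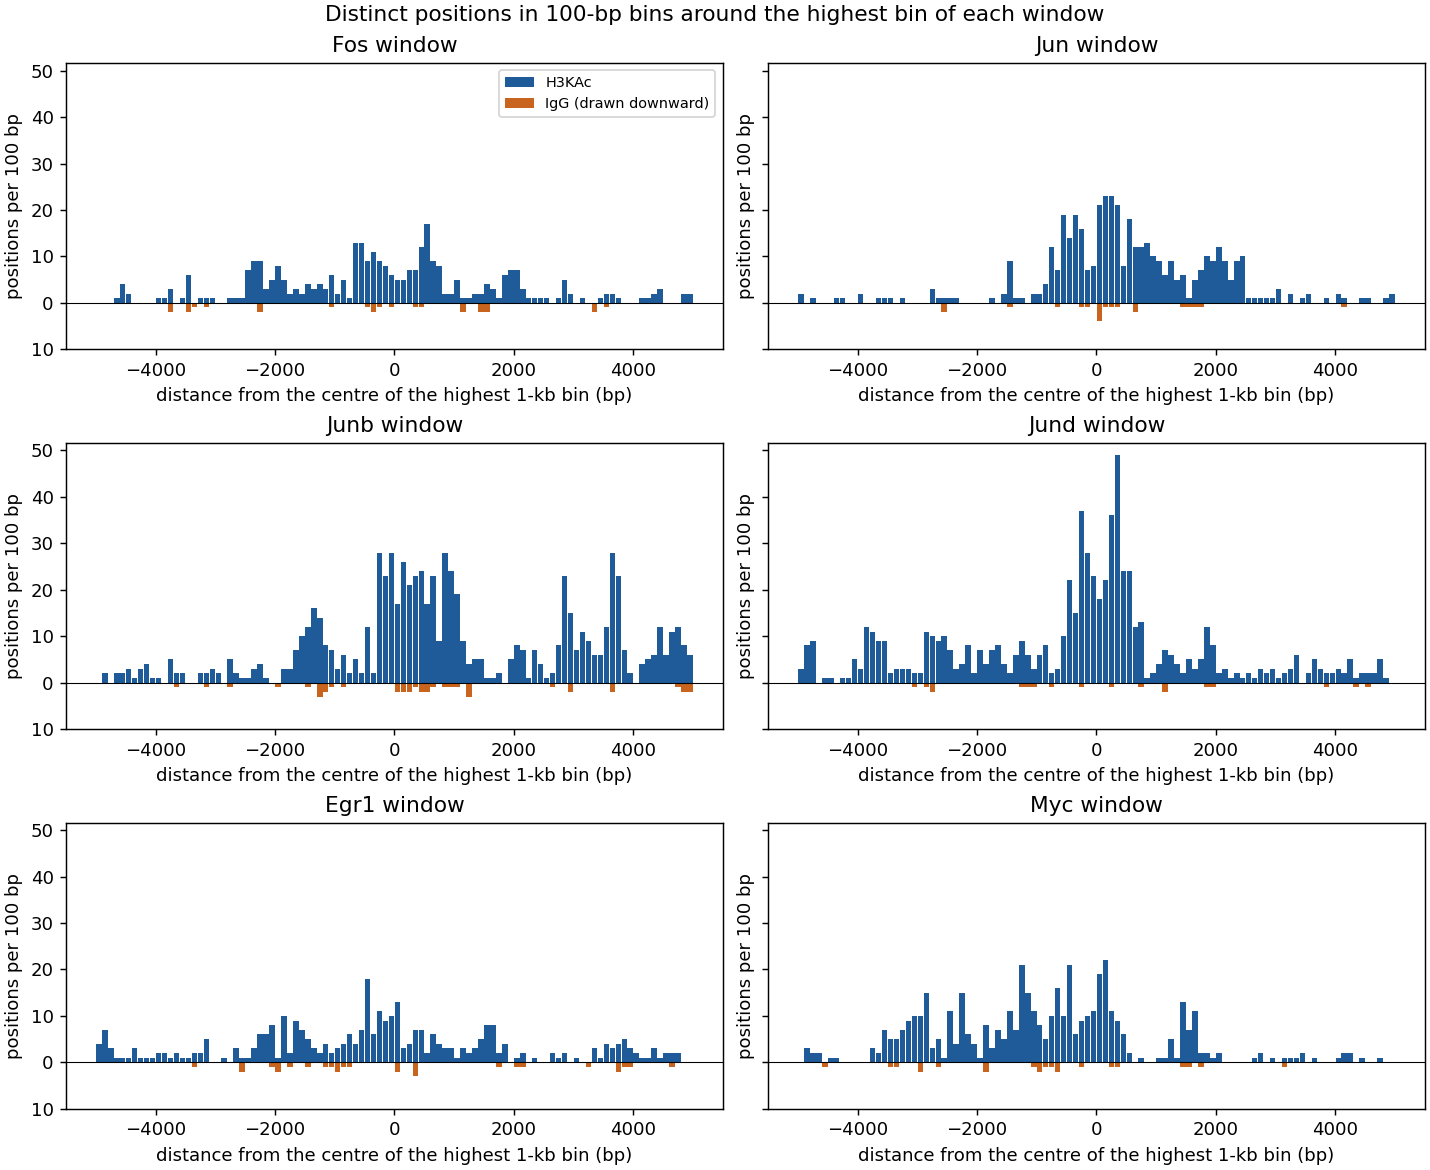
Distinct positions per 100 bp in H3KAc (upward) and IgG (drawn downward) within 5 kb of the centre of the highest bin of each window. Jund has the tallest summit, 49 positions, and Junb several bins of 28, while the profiles of Fos and Egr1 stay at or below 18 positions.

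At a finer scale the summits differed in shape. In 100-bp bins, Jund had 2 summits, with 37 positions at 250 bp before and 49 at 350 bp after the centre of its highest bin, and 18 positions at the dip between them. Junb held bins of 28 positions 250 bp before and 850 bp after the centre of its highest bin. Its stretch of bins with at least 5 positions each covered 1500 bp and held 319 positions. Such a stretch covered 1500 bp in Fos, with 139 positions, and 1400 bp in Jund, with 333, so its length did not set Junb apart. Jun held at least 5 positions per 100 bp over 2300 bp, with 298 H3KAc and 13 IgG positions. It dropped to 1 position at 1550 bp after the centre and rose again to 12 at 2050 bp. Myc held 250 positions over 2200 bp, with a summit of 22, and fell to 2 positions at 550 bp and none at 650 bp after the centre, before 13 positions at 1450 bp. Fos had a summit of 17 positions, and Egr1 one of 18. Counting noise is large at this scale, where 1 bin rarely exceeds 30 positions. With reads left at their mapped ends, the tallest bin moved from 150 bp after to 450 bp before the centre in Jun, and from 350 bp after to 150 bp before it in Jund. In Myc it moved from 150 bp after to 1150 bp before the centre, the longest move of the 6, and in Egr1 from 450 to 50 bp before it. The positions of single summits are therefore not resolved within these stretches.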

How the data were processed

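The deposited files give 1 row per aligned 35-base read, with chromosome, start, end and strand, per the column notes deposited with the series, and 2 placeholder columns of 0. They hold no normalized value. Per the submitters' processing notes, Bowtie was used with mm9, and the sources used here do not give its version, settings or filters. Repeated reads were still present. Here each combination of chromosome, 5' end and strand entered as 1 position, was moved 100 bp along its strand and was assigned to a 1-kb bin. Deposited reads numbered 21845451 (H3KAc) and 7626703 (IgG), or 1.11 and 4.02 per distinct position. Ratios of RPM carry Clopper-Pearson intervals conditional on the summed count, and levels carry exact Poisson intervals. Both cover counting error only, and PCR copies without molecular identifiers make them a lower limit of the true error. A call needed at least 5 positions in both libraries together. The calling rule was tested on simulated data. The genes named are the 6 members, each with its highest bin and every run of bins in the genome-wide top 1%. Members, windows, motifs and settings were chosen with earlier results of these data known. Alternatives were all reads, reads not moved, 1 strand, background scaling, thinned H3KAc, other bounds, IgG over 11 bins, no minimum number of reads, 500-bp bins, 5 kb around the highest bin and the top 0.1%. An mm9 annotation, markers of Th2 cells and other genes of the AP-1 family were not used here. The scripts ran under Python 3.11.15 with pandas 2.3.3, scipy 1.17.1, matplotlib 3.10.9 and numpy 2.4.6.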

Additional observations from a re-analysis of the deposited data

How the results depend on the processing

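With 1 library of each kind no replicate could be left out. No paired analysis was possible because each group has 1 library and no test was made. The ratio of the 6 windows, 1.34, became 2.06 within 5 kb around the highest bins and 1.48 with all reads as deposited. Within 5 kb, the ratios were 1.62 for Fos, 2.26 for Jun, 4.38 for Jund and 2.25 for Myc. The other 43 recomputed ratios stayed within the interval of the value reported. The level of the highest Egr1 bin became 5.54 RPM from the plus strand and 3.58 from the minus strand, and 3.38 when the bin was chosen by the plus strand and measured by the minus strand. The highest Jun bin reached 9.74 RPM per kb with 500-bp bins, and the highest Junb bin 12.0 RPM with all reads. The remaining 43 levels stayed within their intervals, including the highest 1-kb stretch at any 100-bp step, an alternative chosen after seeing the data. The 2 called bins became 31 with all reads, 16 with a lower bound above 1, 0 with one above 4, 16 with IgG over 11 bins, and 1 each with background scaling, thinned H3KAc, plus-strand and minus-strand reads. They became 56 with IgG over 11 bins and a lower bound above 1, also chosen after seeing the data. With 500-bp bins 3 bins were called. The 43 bins in the top 1% became 4 in the top 0.1%. The cause of these changes was not tested. By construction, other bounds admit other bins, and the 5 kb are centred where H3KAc is highest. Counting repeated reads as separate also enlarges the counts and so narrows the intervals.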

Other observations

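Repeated reads, which were left out of the counts, were more frequent in IgG in all 6 windows. The same held for the whole libraries, with 1.11 reads per distinct position in H3KAc and 4.02 in IgG. In the windows, H3KAc had between 1.09 (Egr1) and 1.14 (Jund) reads per distinct position, and IgG between 3.50 (Fos) and 3.93 (Egr1). The most repeated H3KAc position was read 5 times, in the Jun and the Myc window, and the most repeated IgG position 20 times, in the Egr1 window.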
